A study of Ovis aries with 16 samples.

Results

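The hypothalamic neuropeptide genes of the late-gestation fetal sheep were followed across 16 single-color arrays, each hybridized with RNA from the hypothalamus of 1 fetus. The members were all probes that the array names, or that a RefSeq gene table names through the probe's identifier, as 1 of 13 peptide genes: POMC, NPY, SST, OXT, AVP, GNRH1, GHRH, TRH, AGRP, CARTPT, HCRT, PENK and KISS1. By this rule 7 of the 13 genes were found, POMC, NPY, SST, OXT, GNRH1, GHRH and AGRP, with 14 of the 15008 probes of the array. The other 6 genes were not analysed here. The fetuses were Suffolk, carried vascular catheters and were in 4 groups. Normoxia control (NC, 3 fetuses) received saline, normoxia with ketamine (NK, 4 fetuses) received intravenous ketamine, hypoxia control (HC, 5 fetuses) received saline, and hypoxia with ketamine (HK, 4 fetuses) received intravenous ketamine. The stimulus lasted 30 min, with the ewe breathing low-oxygen gas in HC and HK, and was followed by 23.5 h of normoxia, so that tissue was taken at 24 h. Ketamine is an anesthetic that blocks the NMDA type of glutamate receptor. According to the methods nearly all fetuses were twins, and which arrays came from the same ewe was not given in the labels.

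Hypothalamic neuropeptides are made as precursors in small, separate clusters of neurons, cut into active peptides and released at a distance from where their RNA is made. AGRP and NPY are made together in neurons of the arcuate nucleus that drive feeding, and POMC is made by neighboring arcuate neurons that restrain it. GHRH, also an arcuate product, and SST, made in the periventricular nucleus and in many other neurons, act in opposition on pituitary growth hormone. OXT is made by the large neurons of the paraventricular and supraoptic nuclei, and GNRH1 by scattered preoptic neurons that drive the gonadal axis. Apart from SST, these transcripts are therefore expected mainly in a small share of the cells of a hypothalamic block.

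Each gene had 2 probes, and they were nearly the same sequence. The probes of OXT, POMC and SST shared 59 of their 60 bases, those of GHRH and GNRH1 58, those of NPY 57 and those of AGRP 52, so that the members of a pair are not independent measurements. The probes below are printed 5′ to 3′ because they show which part of each precursor was measured, with the stretch common to both probes of the gene in capitals.
AGRP, A_70_P002722: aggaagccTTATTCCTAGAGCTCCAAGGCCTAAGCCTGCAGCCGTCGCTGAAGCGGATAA
AGRP, A_70_P002721: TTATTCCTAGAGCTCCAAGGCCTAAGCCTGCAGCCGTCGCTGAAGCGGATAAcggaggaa
GHRH, A_70_P024162: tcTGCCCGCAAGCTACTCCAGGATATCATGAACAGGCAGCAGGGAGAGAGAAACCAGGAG
GNRH1, A_70_P041361: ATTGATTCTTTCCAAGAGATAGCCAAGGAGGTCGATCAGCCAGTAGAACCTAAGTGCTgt
POMC, A_70_P039552: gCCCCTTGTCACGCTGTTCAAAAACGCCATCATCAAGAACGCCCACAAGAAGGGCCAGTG
For the other POMC probe and for SST the capitals mark the stop codon at which the reading frame of the precursor ends.
POMC, A_70_P039551: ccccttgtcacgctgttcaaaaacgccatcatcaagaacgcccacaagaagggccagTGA
SST, first 42 bases of A_70_P051297: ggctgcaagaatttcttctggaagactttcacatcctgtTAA
The end of the POMC precursor is β-endorphin and the end of the SST precursor is somatostatin itself, so these probes lie in the coding sequence of the peptides. The GHRH probe lies in the hormone and the GNRH1 probe in the peptide that follows the hormone in its precursor. The NPY and OXT probes, which lie mainly in the untranslated end of their transcripts, are not printed. The probes named LOC100101237 on the array were taken as GHRH, and those named SRIF as SST, through the RefSeq table.

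Arrays were of similar quality. Between 71.7% and 80.6% of probes per array were well above background, and the correlation between arrays over all 15008 probes, dim ones included, ranged from 0.967 to 0.986. The arrays lay on 2 slides, each with all 4 groups. Slide 1 held the first 2 fetuses of every group and slide 2 the rest, with a single NC array. Of the 10 neuron markers and the 9 oligodendrocyte markers looked for, 0 had a probe with that name, and of 12 transcription factors of the developing hypothalamus only NR5A1 did, well above background on 3 arrays. The labelled tissue was therefore checked by its peptides: of the 14 probes, 11 were well above background on all 16 arrays and the other 3 on 15. Those 3 were both AGRP probes, in fetus NC2, and the dimmer GNRH1 probe. Levels are given as log2 intensity relative to the 75th percentile of the same array, for the brighter probe of each gene, and are compared between fetuses and not between genes.

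AGRP, the orexigenic antagonist of melanocortin receptors, varied most between fetuses. Its levels were -0.89, -5.82 and -1.84 in NC, -3.85, -0.91, -2.32 and 0.46 in NK, -0.95, -0.49, 1.57, -3.04 and -4.65 in HC, and -0.51, -1.40, -0.76 and -0.85 in HK. The scanner intensity ran from 23.5 in NC2, where the probe was not well above background, to 4434 in HC3. High and low fetuses were found in NC, NK and HC, and all groups overlapped. The group means were -2.85 ± 2.61 (SD, n = 3) in NC, -1.66 ± 1.85 (SD, n = 4) in NK, -1.51 ± 2.40 (SD, n = 5) in HC and -0.88 ± 0.37 (SD, n = 4) in HK. The means were in the order NC, NK, HC and HK from low to high, and no tested difference between neighbors in this order was larger than the spread between fetuses.

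NPY, the partner of AGRP in the same neurons, followed the same fetuses. Its levels were 1.59, -0.42 and 0.74 in NC, 0.22, 1.61, 0.80 and 2.66 in NK, 1.40, 2.01, 3.39, -0.17 and 0.58 in HC, and 1.60, 1.21, 1.38 and 1.67 in HK. NC2 and HC4 were lowest, HC3 was highest and NK4 next, and the 4 HK fetuses lay close together inside the range of the others. Group means were 0.64 ± 1.01 (SD, n = 3) in NC, 1.32 ± 1.06 (SD, n = 4) in NK, 1.44 ± 1.37 (SD, n = 5) in HC and 1.46 ± 0.21 (SD, n = 4) in HK.

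POMC, the precursor of ACTH, α-MSH and β-endorphin, had levels of 1.18, 0.07 and 0.71 in NC, 0.58, 1.52, 0.70 and 2.51 in NK, 1.20, 1.24, 2.22, -0.12 and -0.24 in HC, and 1.39, 1.16, 1.30 and 1.17 in HK. The highest fetuses were again NK4 and HC3, and the lowest were HC5, HC4 and NC2. Means were 0.65 ± 0.56 (SD, n = 3) in NC, 1.33 ± 0.89 (SD, n = 4) in NK, 0.86 ± 1.03 (SD, n = 5) in HC and 1.25 ± 0.11 (SD, n = 4) in HK.

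GHRH, the releasing hormone for growth hormone, had levels of -1.76, -4.07 and -2.91 in NC, -4.71, -1.19, -2.71 and -0.06 in NK, -1.35, -1.33, 0.11, -4.44 and -3.70 in HC, and -2.19, -1.32, -1.93 and -0.90 in HK. HC3 and NK4 were highest and NK1, HC4 and NC2 lowest. Means were -2.91 ± 1.15 (SD, n = 3) in NC, -2.17 ± 2.01 (SD, n = 4) in NK, -2.14 ± 1.88 (SD, n = 5) in HC and -1.59 ± 0.58 (SD, n = 4) in HK. For AGRP, NPY, POMC and GHRH alike the SD was smallest in HK, a difference in spread that was not tested.

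SST, the inhibitor of growth hormone release, varied least in absolute terms. Its levels were 4.78, 4.29 and 3.90 in NC, 4.18, 4.29, 4.25 and 4.87 in NK, 4.03, 4.64, 4.83, 4.64 and 5.14 in HC, and 4.40, 3.81, 4.99 and 4.84 in HK. HC5, among the lowest fetuses for AGRP and POMC, was the highest here, and HK2 was the lowest. The means lay between 4.32 ± 0.44 (SD, n = 3) in NC and 4.66 ± 0.40 (SD, n = 5) in HC, with NK at 4.40 ± 0.32 (SD, n = 4) and HK at 4.51 ± 0.53 (SD, n = 4).

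OXT, the magnocellular hormone of milk ejection and labor, had levels of 3.58, 2.13 and 2.52 in NC, 2.35, 3.14, 2.96 and -0.45 in NK, 2.25, 2.34, 3.34, 2.79 and 2.77 in HC, and 2.54, 1.17, 3.76 and 2.16 in HK. NK4, the fetus with the highest POMC of all, had the lowest OXT of all. Means were 2.75 ± 0.75 (SD, n = 3) in NC, 2.00 ± 1.67 (SD, n = 4) in NK, 2.70 ± 0.43 (SD, n = 5) in HC and 2.41 ± 1.07 (SD, n = 4) in HK.

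GNRH1, the releasing hormone of the gonadal axis, had levels of -3.76, -4.76 and -4.91 in NC, -4.39, -4.18, -3.71 and -3.91 in NK, -4.37, -3.81, -2.95, -5.60 and -3.68 in HC, and -5.16, -3.96, -4.28 and -3.12 in HK. HC3 was highest and HC4 lowest. Means ran from -4.48 ± 0.63 (SD, n = 3) in NC to -4.05 ± 0.30 (SD, n = 4) in NK, with HC at -4.08 ± 0.99 (SD, n = 5) and HK at -4.13 ± 0.84 (SD, n = 4). This was the member for which the probes differed most: the difference between its 2 probes had an SD of 0.58 across arrays, against an SD of 0.70 for the gene itself.

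**Figure D1:**
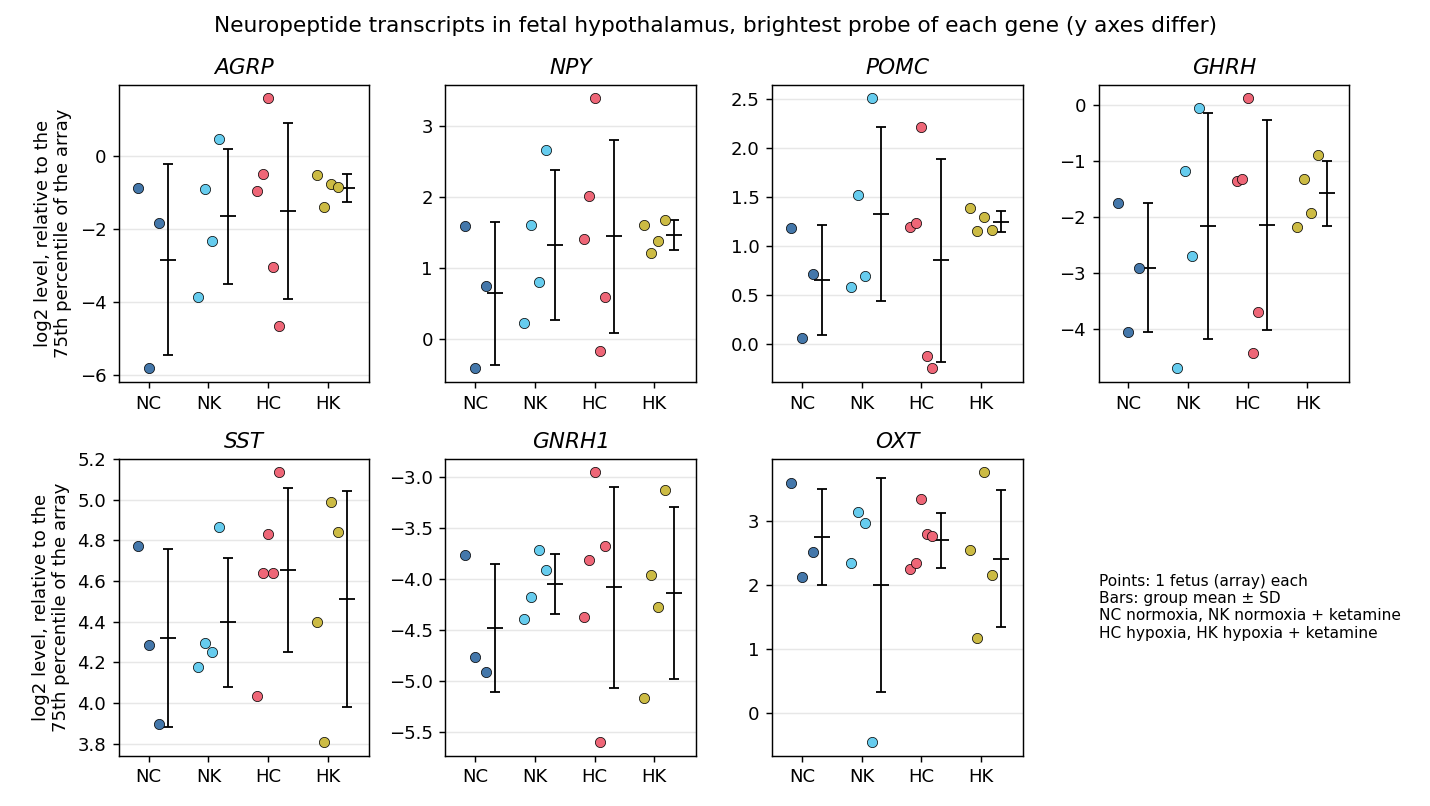
Levels of the 7 neuropeptide genes in each fetus, as log2 intensity relative to the 75th percentile of the array (y axis, a different range for each gene) in NC, NK, HC and HK (x axis). Points are fetuses and bars are the group mean ± SD. For AGRP, NPY, POMC and GHRH the NC, NK and HC fetuses spread widely and overlap, while the 4 HK fetuses lie close together.

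The first comparison was between fetuses treated alike. The spread within groups was large for 6 of the 7 genes. It was measured as the residual SD around the 4 group means and set against tested probes of like brightness, in 10 equal classes of mean level, since dim probes vary more, and a gene was counted as variable at or above the 90th percentile of its class. The residual SD was 1.99 for AGRP (percentile 99.6), 1.58 for GHRH (99.2), 1.07 for OXT (99.5), 1.04 for NPY (99.4), 0.78 for POMC (98.8) and 0.43 for SST (96.0). GNRH1 had a residual SD of 0.77, at percentile 88.1. The median residual SD of all tested probes was 0.236, and that of the 7 genes was 1.04. Without the match on level, 4 of the 7 genes were at or above the 90th percentile, SST falling to 73.8, POMC to 89.0 and GNRH1 standing at 88.8. In these tissue blocks fewer cells of a type and less RNA per cell cannot be told apart.

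The 2 probes of a gene differed little on the same array. Their difference had an SD of 0.070 for POMC, 0.084 for SST, 0.090 for OXT, 0.108 for NPY, 0.140 for GHRH and 0.305 for AGRP. Across the 16 arrays the brighter probe of these genes had SDs of 0.75, 0.40, 1.00, 0.98, 1.48 and 1.90. Because the probes share most of their bases and the same labelled RNA, this bears on the reading of the spots and not on the RNA. Group membership accounted for between 5.19% of the variance between arrays, for GNRH1, and 13.3%, for POMC. Slide accounted for at most 4.17% in 6 of the genes and for 23.7% in SST. The means of 4 groups or of 2 slides take up some of this variance even without any effect. These shares were not corrected for that.

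**Figure D2:**
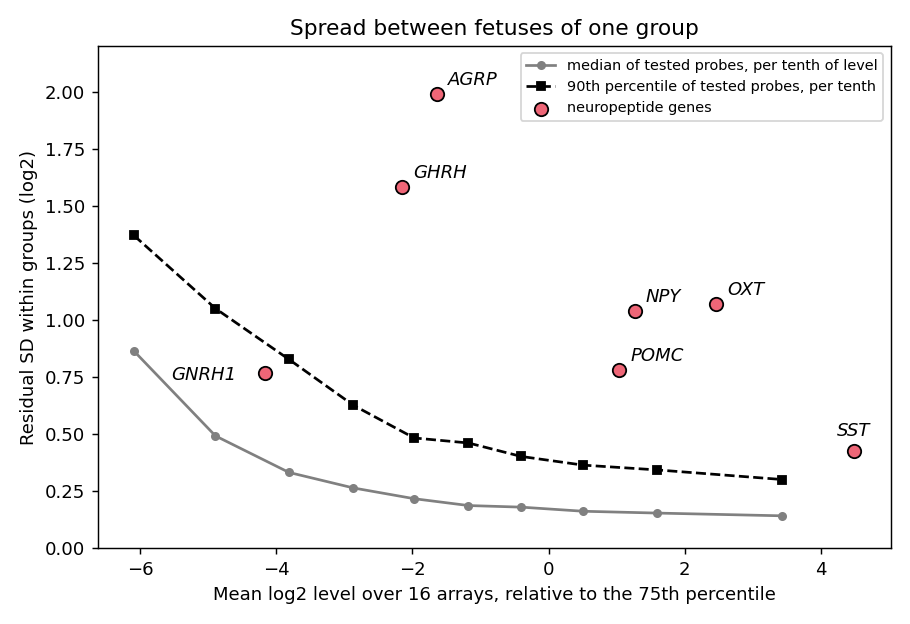
Residual SD within groups (y axis, log2) against the mean level over 16 arrays (x axis, log2 relative to the 75th percentile). Lines give the median and the 90th percentile of all tested probes in each of 10 classes of level, and points the 7 neuropeptide genes. AGRP (1.99) and GHRH (1.58) lie far above the lines, and GNRH1 (0.77) lies just below the 90th percentile.

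Whether the genes went up and down in the same fetuses was then asked for all 21 pairs, with group means removed. AGRP, GHRH, NPY and POMC, the genes known from the arcuate nucleus, moved together in all 6 of their pairs, and OXT and SST did not move with them. The closest pair was NPY with POMC (Pearson's r = 0.955, Spearman's rho = 0.926, permutation p = 0.00018 for r, adjusted p = 0.00126 over 21 pairs). AGRP with POMC had r = 0.932 and rho = 0.959, with p = 1e-05, the smallest that 100000 permutations can give, and adjusted p = 0.00021. AGRP with NPY, the pair made in the same neurons, had r = 0.920 and rho = 0.924 (permutation p = 0.00035, adjusted p = 0.00136). The pairs of GHRH had r = 0.933 with NPY, 0.921 with POMC and 0.878 with AGRP (permutation p = 0.00016, 0.00034 and 0.00039, adjusted p = 0.00126, 0.00136 and 0.00136), with rho of 0.924, 0.906 and 0.891. The permutation p of rho lay between 1e-05 and 0.00099 in the 6 pairs and its adjusted p between 0.00021 and 0.00346. This set of 4 was put together after the values were seen, and the tests are those of the single pairs.

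The correlations among these 4 genes stayed high in the other ways they were computed, but not every test could decide. Without the 2 arrays farthest from the median, r in the 6 pairs was between 0.911 and 0.959. Within slide 1 it was between 0.846 and 0.975 and within slide 2 between 0.901 and 0.982. With slide as a block r was between 0.879 and 0.960, and of the 6 pairs 1 was past the adjusted threshold, the largest permutation p of the 6 being 0.0396. Leaving out any 1 fetus, all 6 pairs remained past the adjusted threshold, with r no lower than 0.843, the value reached without HC3. Fetuses stood on the same side of their group mean for all 4 genes in 10 of the 16 cases. NC1, NK2, NK4, HC2 and HC3 were above it for each gene and NC2, NK1, NK3, HC4 and HC5 below it, and the remaining 6 fetuses, all 4 of HK among them, were mixed.

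A weaker relation was seen for GNRH1. With GHRH it had r = 0.605 and rho = 0.547 (permutation p = 0.0114 and adjusted p = 0.0341 for r, permutation p = 0.0445 and adjusted p = 0.133 for rho), and r was 0.537 on slide 1 and 0.653 on slide 2. Without NK1 and HC4, the fetuses farthest from the median of GHRH, r was 0.446. With NPY it had r = 0.604 and rho = 0.50 (permutation p = 0.0274 and 0.079, adjusted p = 0.0721 and 0.207), and r was 0.240 without HC3 and HC4, so that this relation rests on those fetuses.

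For OXT the 6 pairs had r between -0.215 and 0.159, none past the adjusted threshold. Its r with GHRH was -0.215, with POMC -0.211 and with NPY -0.106. With SST the correlation was 0.159, 0.650 on slide 1 and -0.188 on slide 2. SST in turn had r between 0.113 and 0.376 with the other genes, the highest with GNRH1 (permutation p = 0.228, adjusted p = 0.452). With 16 arrays a correlation of this size could not be separated from none.

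**Figure D3:**
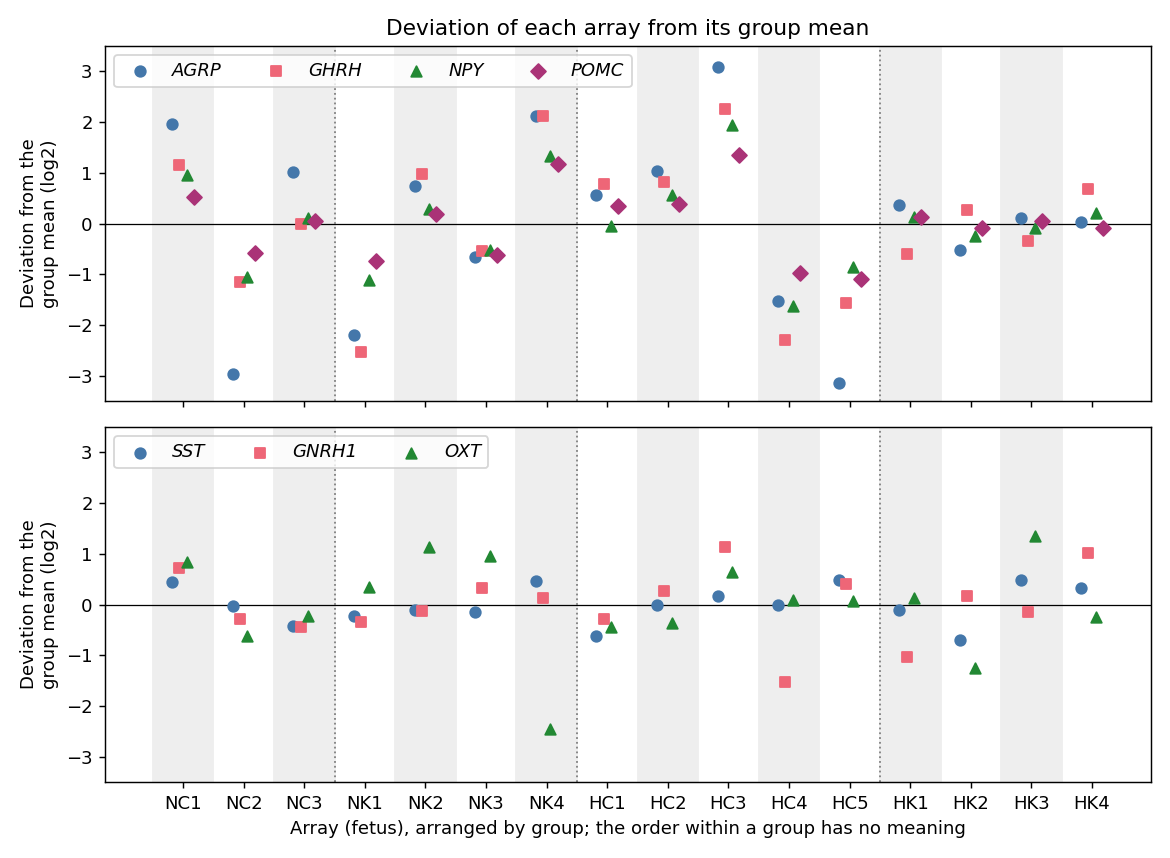
Deviation of each array from the mean of its group (y axis, log2) for each of the 16 fetuses (x axis), with AGRP, GHRH, NPY and POMC in the upper panel and SST, GNRH1 and OXT in the lower. In the upper panel all 4 symbols lie on the same side of 0 in 10 of the 16 fetuses, NC2, NK4, HC3, HC4 and HC5 among them, and in the lower panel all 3 do so in 6.

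Over all named probes the same 4 genes were also each other's nearest patterns. By Pearson's r over 16 arrays with group means kept, taken with whichever probe of the other gene was closest, and as a description, the named genes most like NPY were GHRH (0.934), AGRP (0.922) and POMC (0.913). Those most like POMC were NPY (0.913), AGRP (0.901) and GHRH (0.897), those most like AGRP were NPY (0.921), POMC (0.901) and GHRH (0.894), and those most like GHRH were NPY (0.928), POMC (0.907) and AGRP (0.889). Among 12170 probes with a value on every array and other than its own, NPY was the probe with the highest r for POMC, for AGRP and for GHRH. SST had other neighbors: ESR1, the estrogen receptor α (0.881), NPVF, the RFamide-related peptide precursor (0.877), and CRHBP, the binding protein of corticotropin-releasing hormone (0.858). Among those close to OXT were TXNDC17 (0.682) and RAB7A (0.512), and the closest to GNRH1 were RPN2 (0.821), HYAL2 (0.710) and BCL2L1 (0.700).

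Some other hypothalamic peptide genes varied with the arcuate genes or with SST. Of 17 looked for, 8 were on the array and tested, GAL, TAC1, TAC3, ADCYAP1, PMCH, GRP, NPVF and NPPC, and of the 56 pairs with a member 7 passed the adjusted threshold by r and 4 by rho, these being pairs of TAC3, NPVF, ADCYAP1 and GAL. TAC1, PMCH, GRP and NPPC had none. The count by r was 3 without HC3, 4 without NK1, NK2, NK4 or HC4 and 0 with slide as a block. The slide block left 384 arrangements, too few for a single pair to pass an adjustment over 56 pairs, so that its count does not decide. These pairs, and those with cell markers below, were added after the pairs of members had been seen. TAC3, the neurokinin B precursor of arcuate neurons, moved with NPY (r = 0.787, permutation p = 0.00023, adjusted p = 0.00429), AGRP (r = 0.748, permutation p = 0.00289, adjusted p = 0.0312) and POMC (r = 0.698, permutation p = 0.0053, adjusted p = 0.0424). By rho these were 0.803, 0.709 and 0.697, with permutation p of 0.00023, 0.00577 and 0.0085 and adjusted p of 0.00672, 0.0539 and 0.068. Within slides these r were between 0.632 and 0.818. Without HC3 and HC5 the r of TAC3 with POMC was 0.493, while without NC2 and HC5 that with AGRP was 0.713 and without HC3 and HC4 that with NPY was 0.687.

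SST moved with NPVF (r = 0.883, permutation p = 0.00017, adjusted p = 0.00429), with GAL, the galanin gene (r = 0.840, permutation p = 0.00061, adjusted p = 0.00854), and with ADCYAP1, the precursor of PACAP (r = 0.786, permutation p = 0.00019, adjusted p = 0.00429). By rho they were 0.850, 0.847 and 0.794, with permutation p of 0.00052, 0.00024 and 0.00042 and adjusted p of 0.00728, 0.00672 and 0.00728. The r were 0.926, 0.917 and 0.730 on slide 1 and 0.844, 0.762 and 0.748 on slide 2. Without HC1 and HK2 they were 0.864, 0.782 and 0.736. GAL was the only one of the 8 that passed both with SST and with an arcuate gene, having r = 0.726 and rho = 0.721 with NPY (permutation p = 0.00334 and 0.00548, adjusted p = 0.0312 and 0.0539), with r of 0.691 and 0.777 within slides and 0.660 without HC3 and HC4. OXT and GNRH1 had 0 of the 16 pairs past the threshold.

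Markers of other cells that a hypothalamic block could hold were set beside the members in 98 pairs, of which 5 passed by r and 2 of these by rho. The adjusted p of the 5 by r lay between 0.0392 and 0.0451, close to the threshold, and the count depended on which fetuses were included. No pair passed without any 1 of NC1, NC3, NK1, NK2, NK3, NK4, HC2 or HC3. Leaving out each of the other fetuses gave between 1 and 8 pairs. No pair passed with slide as a block either. That test had 384 arrangements, too few for a single pair to pass an adjustment over 98 pairs, so that its count does not decide. The pituitary hormone subunits CGA and FSHB gave 4 of the 5 pairs. The other pituitary genes tested, PRL, LHB and GHRHR, had none. With AGRP, GHRH, NPY and POMC their r was 0.517 to 0.692 for PRL, 0.102 to 0.376 for LHB and -0.003 to 0.079 for GHRHR. CGA, the common α subunit of the glycoprotein hormones, moved with GHRH (r = 0.862, permutation p = 0.00127, adjusted p = 0.0415) and AGRP (r = 0.811, permutation p = 0.0021, adjusted p = 0.0451). FSHB, the follicle-stimulating hormone subunit, moved with GHRH (r = 0.823, permutation p = 0.0004, adjusted p = 0.0392) and POMC (r = 0.841, permutation p = 0.00086, adjusted p = 0.0415). NR5A1, the steroidogenic factor of the ventromedial nucleus and of gonadotropes, moved with SST (r = 0.782, permutation p = 0.0023, adjusted p = 0.0451). By rho the 5 were 0.791, 0.788, 0.891, 0.771 and 0.871, with permutation p of 0.00667, 0.00467, 0.00012, 0.00559 and 0.00084 and adjusted p of 0.103, 0.103, 0.0118, 0.103 and 0.0412. Within slides the r of these pairs was 0.849 and 0.910, 0.769 and 0.896, 0.787 and 0.908, 0.659 and 0.923, and 0.620 and 0.836, and without the 2 farthest arrays it was 0.760, 0.789, 0.846, 0.707 and 0.714. FSHB was well above background on 4 arrays and NR5A1 on 3, so that most of their values are readings near background, while CGA was well above it on 14. Of the 12 pituitary genes looked for, 5 were tested. The log2 of their summed levels ran from 2.60 to 2.88 in NC, 2.76 to 3.06 in NK, 2.60 to 3.30 in HC and 2.95 to 3.14 in HK. This sum mostly reflects LHB, whose group means lay between 2.65 and 2.92, while those of CGA lay between -2.25 and -1.58. The sum therefore hides the spread of CGA between fetuses. In HC against NC the difference was -0.17 ± 1.92 (SE) for CGA and 0.07 ± 0.09 (SE) for LHB, beside an SE of 1.36 for AGRP. POU1F1 was well above background on 1 array and GNRHR on 0. POMC is also a gene of the anterior pituitary. How much arcuate tissue, median eminence or pituitary stalk each block held was not measured, and the part of these in the spread was not tested.

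**Figure D4:**
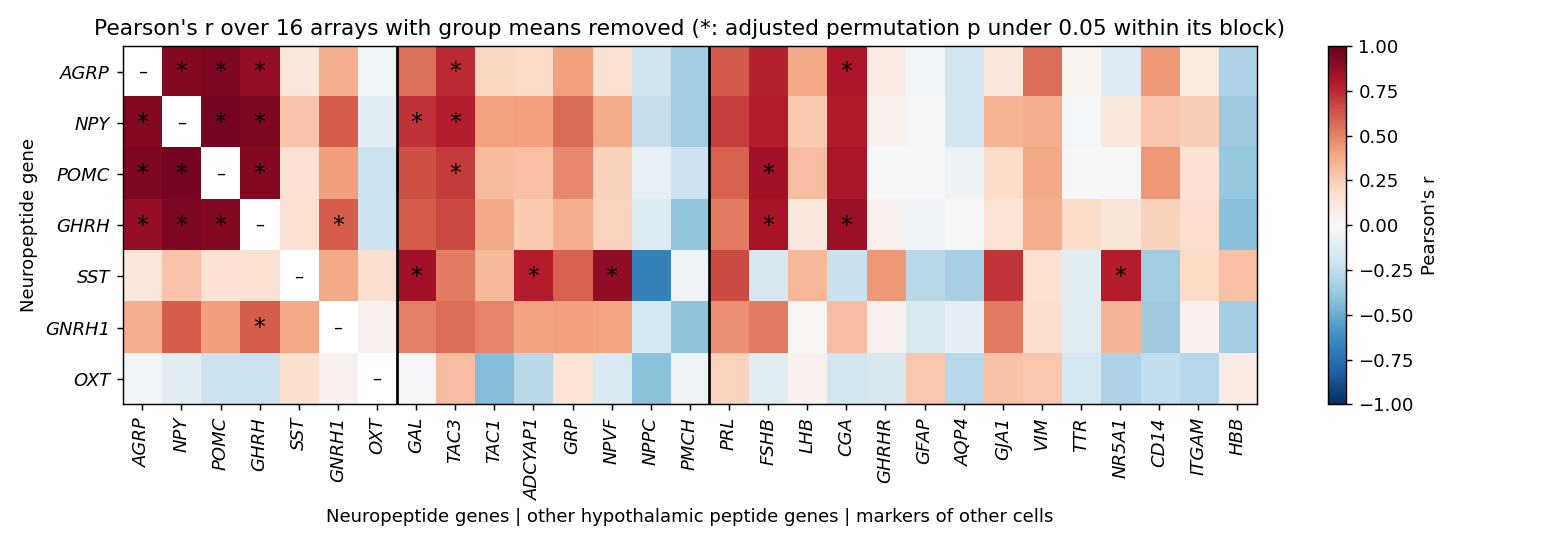
Pearson's r over 16 arrays with group means removed (color, from -1 to 1) between each of the 7 neuropeptide genes (rows) and the same genes, 8 other hypothalamic peptide genes and 14 markers of other cells (columns). Asterisks mark pairs with an adjusted permutation p under 0.05 within their own block. The block of AGRP, NPY, POMC and GHRH is dark throughout (0.878 to 0.955), SST is dark with GAL, ADCYAP1 and NPVF, and the row of OXT is pale.

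Against this spread none of the treatments had a detectable effect on the members. A probe was called at an unadjusted p under 0.05 in limma, the threshold of the study. HC against NC, which asks what hypoxia left behind at 24 h, called 0 of 14 member probes where 8.15% of all tested probes were called. At that background 14 probes would hold about 1 call, so that a count of 0 is near the background. The smallest unadjusted limma p among them was 0.252 and the smallest adjusted p 0.803. By the median of the 7 genes the difference was 0.40 in log2, against -0.03 over all tested probes, with 6 genes higher and 1 lower by the brighter probe.

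AGRP had the largest positive difference in HC against NC, 1.33 ± 1.36 (SE) in log2, with a 95% confidence interval from -1.59 to 4.25 (exact permutation p = 0.536). With slide as a block it was 1.26, within slide 1 it was 2.63 and within slide 2 it was -0.20. Without NC2, whose AGRP was not well above background, it was -0.15, so that the sign of this difference rests on that fetus. The lowest difference was that of OXT, -0.05 ± 0.73 (SE), with -0.06 under the slide block, -0.56 on slide 1 and 0.45 on slide 2. It turned positive without NC1, HC1 or HC2, the widest being 0.37 without NC1.

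Within slide 2 both SST probes were past the unadjusted threshold in HC against NC (brighter probe 0.97 ± 0.30 (SE) in log2, adjusted p = 0.719), where 6% of all probes of that fit were. NC is a single fetus on this slide, assumed in the fit to vary like the other groups, so that the value rests on NC3, whereas on slide 1 the difference was -0.19 and over all 16 arrays it was 0.34 ± 0.30.

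Ketamine alone, NK against NC, called 0 of 14 member probes beside 1.09% of all probes, with a smallest unadjusted limma p of 0.238 and a smallest adjusted p of 1.0. The median of the members was 0.67, against 0.02 over all probes. AGRP differed by 1.19 ± 1.42 (SE), with an interval from -1.86 to 4.24 (exact permutation p = 0.571), 1.15 under the slide block and 0.97 and 0.91 within slides. Without NC2 it was -0.29. OXT differed by -0.74 ± 0.76 (SE), from -2.38 to 0.90 (exact permutation p = 0.686), with -0.75 under the block and -0.11 and -1.26 within slides. Without NK4 it was 0.07. Both comparisons have the same NC fetuses as their base, NC2 among them, and are not independent of each other.

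Ketamine after hypoxia, HK against HC, called 0 of 14 beside 7.04% of all probes (smallest unadjusted limma p 0.438, smallest adjusted p 0.887), with a median of 0.02 against 0.03. AGRP differed by 0.63 ± 1.25 (SE), from -2.05 to 3.31 (exact permutation p = 0.667). Under the slide block it was 0.66, on slide 1 -0.23, on slide 2 1.24 and without HC5 -0.15. OXT differed by -0.29 ± 0.67 (SE), from -1.73 to 1.15 (exact permutation p = 0.603), with -0.28 under the block, -0.44 on slide 1 and -0.0039 on slide 2. Without HK2 it was 0.12.

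Hypoxia under ketamine, HK against NK, called 0 of 14 beside 8.69% (0.00816% after adjustment, against 0 of 14, smallest unadjusted limma p 0.565, smallest adjusted p 0.938). AGRP differed by 0.77 ± 1.32 (SE), from -2.05 to 3.6 (exact permutation p = 0.457), and by 0.77 under the slide block, 1.43 on slide 1 and 0.12 on slide 2. GNRH1 differed by -0.08 ± 0.51 (SE), from -1.18 to 1.01, with 0.11 on slide 2 and 0.26 without HK1. The dimmer GNRH1 probe gave 0.14, and for this gene the sign also depended on the probe in HC against NC (-0.05 for the dimmer probe, 0.40 for the brighter), in NK against NC (-0.20 and 0.43) and in the interaction (0.20 and -0.48). In the interaction, which asks whether the ketamine difference after hypoxia differs from that after normoxia, 0 of 14 were called beside 3.8%. Its extremes were OXT at 0.45 ± 1.02 (SE), which was -0.36 without NK4, -0.33 on slide 1 and 1.26 on slide 2, and NPY at -0.67 ± 0.99 (SE), which was -0.64 on slide 1 and -0.73 on slide 2.

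The intervals show how precisely these arrays measured the differences. In HC against NC the 95% interval reached 0.64 in log2 to either side of the estimate for SST, 1.15 for POMC, 1.13 for GNRH1, 1.53 for NPY, 1.57 for OXT, 2.32 for GHRH and 2.92 for AGRP. A change of this size or a larger one could have been present without being called, since the interval of AGRP, for example, ran to 4.25. In none of the 4 comparisons did a member probe separate the groups, while of all tested probes 4.93% did so in HC against NC, 2.32% in NK against NC, 1.55% in HK against HC and 5.42% in HK against NK.

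**Figure D5:**
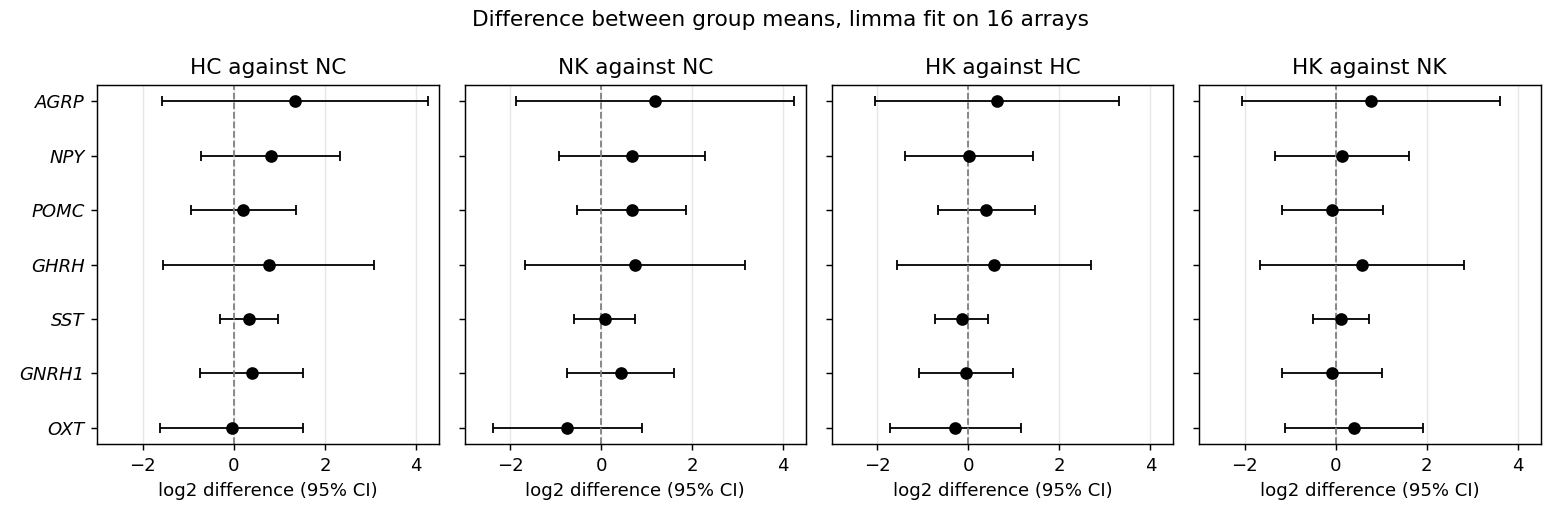
Difference between group means (x axis, log2) with its 95% confidence interval for each of the 7 neuropeptide genes in 4 comparisons, from a limma fit on 16 arrays. Every interval includes 0, and those of AGRP are the widest, reaching 2.92 to either side in HC against NC.

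Genes that act before and after the peptides were counted from lists. Over all tested probes the share called was 8.15% in HC against NC, 1.09% in NK against NC, 7.04% in HK against HC, 8.69% in HK against NK and 3.8% in the interaction. At these shares lists of 8 or 12 genes would hold few calls or none. Of the 8 other hypothalamic peptide genes tested, 0 were called in any comparison or in the interaction. Of 11 processing and granule genes only CPE, the carboxypeptidase that trims peptide precursors, was on the array, and it was not called. Of 25 peptide and hormone receptors 12 were tested. HCRTR1, an orexin receptor, was higher in HC than NC by 0.44 ± 0.19 (SE) and higher in HK than NK by 0.63 ± 0.18 (SE), with adjusted p = 0.567 and adjusted p = 0.358. TRHR, the receptor for thyrotropin-releasing hormone, was lower in HK than NK by a log2 difference of -1.93 ± 0.66 (SE), with adjusted p = 0.411. Among receptors of the members, NPY1R, NPY2R, SSTR2, SSTR5, OXTR and GHRHR were tested and not called, OXTR being well above background on 3 arrays and GHRHR on 4, and GNRHR, well above it on 0, was not tested. Of 12 receptors for hormones that act on peptide neurons 6 were tested, and GHR, the growth hormone receptor, was lower in HK than HC by a log2 difference of -0.63 ± 0.27 (SE) and lower in HK than NK by -0.66 ± 0.28 (SE), with adjusted p = 0.698 and adjusted p = 0.537. LHB, the luteinizing hormone subunit of the pituitary list, was higher in HK than HC by 0.19 ± 0.08 (SE) and in HK than NK by 0.21 ± 0.09 (SE), with adjusted p = 0.698 and adjusted p = 0.496. All of these were past the unadjusted threshold and none passed adjustment over all tested probes. Among marker lists, CD14 and ITGAM of macrophages and microglia were higher in HC than NC, by 1.34 ± 0.59 (SE) and 0.74 ± 0.33 (SE), with adjusted p = 0.583 and adjusted p = 0.585, and CD14 differed by -1.35 ± 0.55 (SE) in HK against HC, with adjusted p = 0.688, where ITGAM differed by -0.08 ± 0.30 (SE). Their part in the peptide values was not tested, and CD14 and ITGAM had 0 of 14 pairs with the members past the threshold, with r between -0.359 and 0.432.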

How the data were processed

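RNA of fetal sheep hypothalamus was measured on Agilent single-color arrays of 15744 spots. The members and the gene lists were chosen with earlier results of these data known. The authors deposited the scanner output, in which the intensity of each spot had been background-corrected by Feature Extraction 10.1.1.1, named in the file headers, and a table of normalized log2 values, which was used here as an alternative. The genome build was not given in the sources used here.

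For each array log2 of the processed intensity was taken and the array's 75th percentile over the spots other than the 536 control spots was subtracted. Spots with an outlier flag (0.0801%) were left out and spots of the same probe averaged. Tests were run on 12249 of 15008 probes, those that 3 or more arrays read well above background. Of all probes 1656 (11.0%) had a gene name, and 726 of 750 RefSeq accessions on the array matched the RefSeq gene table of the sheep assembly ARS-UI_Ramb_v3.0.

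The 4 groups were fitted together with limma 3.58.1 in R 4.3.3 over 16 arrays, two-sided, with Benjamini-Hochberg adjustment over all tested probes. Exact permutation tests of single differences and permutation tests of correlations (100000 resamples within groups, two-sided, adjusted within each family) were run in Python 3.11.15. Every member found was named, with a change for any probe past the threshold and for the largest positive and negative difference of each comparison, and the 3 named genes most like each member, of which 1 is not reported here. For each list gene, and for each member, the brighter probe was used. Both tests were tested on simulated data. The number of arrays limits the precision, and p-values were computed against the spread between these samples. All tests treat the 16 fetuses as independent, although nearly all were twins and shared ewes are not given in the labels. Alternatives were quantile normalization, normexp background correction, the deposited log2 table, other filters, slide and replicate number as blocks, each slide alone, array weights, only the groups compared, and each array left out in turn.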

Additional observations from a re-analysis of the deposited data

How the results depend on the processing

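The count of member probes called was 0 in every comparison and alternative run, except for HC against NC on slide 2 alone, where it was 2, both of SST, with a single NC array and beside 6% of all probes. The count of genes with high spread was between 6 and 7, and 4 without the match on level. Of the 21 pairs, 7 passed; 6 passed with quantile normalization, with normexp or with the deposited log2 values, all of them among the 7, and 4 with probes well above background on all 16 arrays, which leaves out AGRP. With slide as a block, permuting within group and slide (384 arrangements), 1 pair passed, and r among the arcuate genes was then 0.879 to 0.960, against 0.878 to 0.955 without the block. The smallest p that 384 arrangements allow is above the level that a single pair among 21 must reach. This 1 pass therefore came from the random draw of arrangements. The count with the block does not decide and cannot be set beside the main count. For each slide alone, with 16 and 24 arrangements, no count of pairs could be had. Leaving out each array gave 6 to 8 pairs. Of the 56 pairs with other hypothalamic peptides 7 passed, with 3 to 9 on leaving out each array, 0 with slide as a block and 18 with the replicate block. Of the 98 pairs with markers of other cells 5 passed, with 0 to 8 on leaving out each array, 9 with quantile normalization, 2 with the deposited values or normexp, 0 under the slide block or with probes well above background on all arrays, and 14 with the replicate block. With 384 arrangements a single pair could not pass over 56 or 98 pairs, so that the counts of 0 under the slide block do not decide. Under the replicate block the permutations were made within groups without regard to the number. Its counts therefore cannot be set beside the main counts.

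Differences changed sign as follows, none of them past the threshold. Leaving out each array moved AGRP between -0.15 and 2.31 in HC against NC, between -0.29 and 2.17 in NK against NC and between -0.15 and 1.40 in HK against HC. It moved OXT between -0.35 and 0.37 in HC against NC, between -1.12 and 0.073 in NK against NC, between -0.74 and 0.12 in HK against HC and between -0.36 and 0.87 in the interaction, and GNRH1 between -0.42 and 0.26 in HK against NK. AGRP was -0.20 on slide 2 in HC against NC and -0.23 on slide 1 in HK against HC. OXT in HC against NC was 0.45 on slide 2 and 0.011 with array weights, and -0.33 on slide 1 in the interaction. GNRH1 in HK against NK was 0.0016 with quantile normalization, 0.044 with normexp, 0.051 with the deposited values, 0.11 on slide 2 and 0.17 with array weights. The causes were not tested.

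Replicate numbers are shared between groups, but the labels do not say that they pair the fetuses. Deviations of same-numbered arrays correlated between -0.0578 and 0.346 (median 0.22), those of other arrays of the same slide had a median of 0.207, and 9 of 15 arrays were closest to an array of their own number. Same-numbered arrays always shared a slide, so that many would be closest to their own number without any pairing. The share to be had without pairing was not computed, and the 9 are not a sign of pairing. With the replicate number as a block 0 member probes were called in any comparison, AGRP in HK against HC was -0.15 and OXT in HC against NC was 0.22. For the pairs, 9 were then counted as past the threshold. Their permutations were made within groups without regard to the number, so that this count cannot be set beside the main count.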

Other observations

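A single further probe of the array bears no gene name but is described as similar to bovine proenkephalin, the precursor of the enkephalins. It was not counted as a member. It was well above background on 1 of the 16 arrays, HC5, with a level of -4.67 (log2, relative to the 75th percentile of the array), and lay between -8.46 and -7.59 on the other 15. HC5 was also the fetus with the highest SST and among the lowest for AGRP and POMC. Whether this probe measures the sheep transcript was not tested.

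The transthyretin gene TTR, an abundant product of the choroid plexus, varied widely between the same fetuses without following the members. Its level was well above background on all 16 arrays and ran from -2.64 in HC3 to 3.47 in HC2 and NK2. Of the 7 pairs of TTR with the members 0 passed the adjusted threshold. Among groups of 4 or 5 fetuses, 0 of 42 sets of values of a member probe in a group had an array standing apart by Dixon's criterion. With so few values this criterion marks only extreme departures. OXT in NK4, at -0.45 beside 2.35, 3.14 and 2.96 in the other NK fetuses, was not marked. The count of 0 therefore does not show that no array stands apart.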
